A study of Mus musculus with 6 samples.

Results

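The 72 genes described here are the axon guidance ligands and receptors of the mouse: the semaphorins and plexins, the Slits and Robos, the netrins and netrin-Gs with Dcc and the Unc5 receptors, and the ephrins with the Eph receptors. They were picked out of the 32285 genes of the deposited counts by gene symbol, and these families were chosen with earlier results of these data known. Of the 72 members, 69 are protein-coding, 37 of them ligands and 32 receptors, and 3 are antisense RNA genes at Plxna4 whose symbols match the same pattern (Plxna4os1, Plxna4os2 and Plxna4os3). Counts in single nuclei came from the lumbar spinal cord of C57BL/6 mice at 110 days of age, with 3 PHD1-/- libraries against 3 PHD1+/+ libraries. Every mouse of both groups also carried SOD1G93A, a mutant human superoxide dismutase transgene that causes motor neuron disease, so no animal without that transgene enters any comparison. PHD1, an oxygen-sensing prolyl hydroxylase, is encoded by Egln2, and the labels name no promoter or cell type to which its loss was restricted. By the labels, the 6 cords came from 3 littermate pairs and were frozen before the nuclei were taken out. The comparisons address which cell classes carry each guidance gene in this tissue and whether loss of PHD1 goes with another level.

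Axon guidance molecules steer growing axons toward or away from a source, and most act by changing the actin and microtubule skeleton of the growth cone. Class 3 semaphorins, Slits and netrins are secreted, while ephrins and the semaphorins of classes 4 to 7 stay mostly at the cell surface, so that some signals cross space and others need contact. Many of these genes remain active in the adult, where they are known for roles in synapses, blood vessels, myelin-forming cells and immune cells.

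The 6 libraries held 14120298 to 33794389 UMIs (unique molecular identifiers, each standing for 1 captured RNA molecule), and 41906 nuclei passed the filters, 19789 of PHD1-/- and 22117 of PHD1+/+ mice. Egln2, the targeted gene, stood at 9.66, 9.04 and 10.1 CPM (counts per 1e6 UMIs of the library) in PHD1-/- replicates 1 to 3, against 29.6, 18.8 and 16.4 CPM in PHD1+/+ replicates 1 to 3 (p = 0.1 in a two-sided exact permutation test, which cannot go lower with 3 libraries a group). Replicate 1 of both groups stands apart: its barcodes begin with another sequence, its median of 1363 to 1365 UMIs per nucleus is below the 2290.5 to 2902 of the other libraries, and it holds Xist at 1110 CPM in PHD1-/- and 487 CPM in PHD1+/+ together with Y-linked Uty at 51.4 CPM in PHD1-/- and 95.3 CPM in PHD1+/+; the other 4 libraries held Xist at 0.0615 to 0.432 CPM and Uty at 215 to 255 CPM. Between 0 and 86 barcodes were shared by any pair of libraries. Nuclei were grouped into classes with all 72 members left out of the clustering genes, so a member's level did not help to form the class in which it is read; the class names stand for clusters that are like the named type by its markers. The 13 classes used held 35769 nuclei (85.4%): 13497 oligodendrocytes, 7582 excitatory, 5400 inhibitory and 115 cholinergic neurons, 2910 microglia, 1536 astrocytes, 1067 oligodendrocyte precursors, 950 Schwann cells, 944 fibroblasts, 787 ependymal cells, 476 endothelial cells, 254 mural cells and 251 newly formed oligodendrocytes. Some classes carried the markers of others beside their own, given here as the mean summed level over 6 libraries. Newly formed oligodendrocytes had 14490 CPM of oligodendrocyte and 8380 CPM of precursor markers beside 11000 CPM of their own. Schwann cells had 6773 CPM of oligodendrocyte markers beside 22470 CPM of their own. Neuron markers summed to 6635 CPM in fibroblasts beside 6053 CPM of their own, 10730 CPM in mural cells beside 12270 CPM, 5272 CPM in ependymal cells beside 6732 CPM, 8962 CPM in oligodendrocyte precursors beside 20010 CPM, 4245 CPM in astrocytes beside 17380 CPM and 3810 CPM in endothelial cells beside 15740 CPM, against 28060 to 33080 CPM in the neuron classes. Endothelial cells also had 8080 CPM of red blood cell genes. The part of these markers in the levels given below was not tested. In PHD1-/- replicate 2 the endothelial class held 11 nuclei and 14563 UMIs, so that 3 UMIs there make 206 CPM. In the counts as a whole, the members had from 45 UMIs (Efna4) to 164609 (Dcc), with a median of 3120, and together made up 0.821% of all UMIs. Long genes had more: the 31 members over 100 kb had a median of 2.13e4 UMIs and the 39 shorter ones 1635, so levels are compared below between classes within a gene and not between genes.

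More of the tested members were higher in the neuron classes than in any other class, and most were lower in microglia. Each class was set against the mean of the other 12 on the log2 scale with the library as a block (edgeR quasi-likelihood test, adjusted p under 0.05 over 11591 genes). Of the 72 members, 53 had enough counts in the class sums to be tested. A gene can pass that filter through the class where it is high, so the counts describe these 53 and not all 72. The 19 not tested were Efna1 to Efna4, Epha1, Epha2, Epha8, Ephb3, Ntn3, Ntn5, Plxna1, Plxna3, Robo3, Sema3f, Sema4f, Unc5a and the antisense genes. Among neurons, 34 of 53 members were higher in excitatory neurons against 34.8% of all genes tested, 33 in inhibitory neurons against 34.7% and 27 in cholinergic neurons against 24.8%. At the other end, 6 members were higher in microglia against 34.6% of all genes, and 36 were lower there against 27%. Oligodendrocytes also had more members lower, 29, against 25.8% of all genes, than higher, 16, against 37.2%. For oligodendrocyte precursors the counts ran the other way, with 21 higher against 19.7% and 7 lower against 12.6%. The remaining counts were 19 higher in Schwann cells against 18.9%, 17 in fibroblasts against 20.4%, 16 in newly formed oligodendrocytes against 16.9%, 13 in astrocytes against 25.6%, 13 in endothelial cells against 25%, 13 in ependymal cells against 20.1% and 2 in mural cells against 6.41%. Lower in those classes were 21 members in Schwann cells against 17.5%, 11 in fibroblasts against 10.5%, 21 in newly formed oligodendrocytes against 17.2%, 24 in astrocytes against 16.2%, 12 in endothelial cells against 16.8%, 8 in ependymal cells against 11% and 2 in mural cells against 4.83%. The median log2 difference of the members from the mean of the other classes was 1.07 in excitatory neurons, against -0.01 over all genes, and -1.69 in microglia, against 0.07. Members had no part in forming the classes and other genes did, so the members' share and the share of all genes are not on equal footing. Some of these counts rest on 1 library: lower members numbered 7 in endothelial cells and 6 in mural cells without PHD1-/- replicate 1, 13 in newly formed oligodendrocytes without PHD1-/- replicate 2, and 7 in fibroblasts and 4 in precursors without PHD1+/+ replicate 2, while higher members numbered 5 in mural cells without PHD1+/+ replicate 1.

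**Figure D1:**
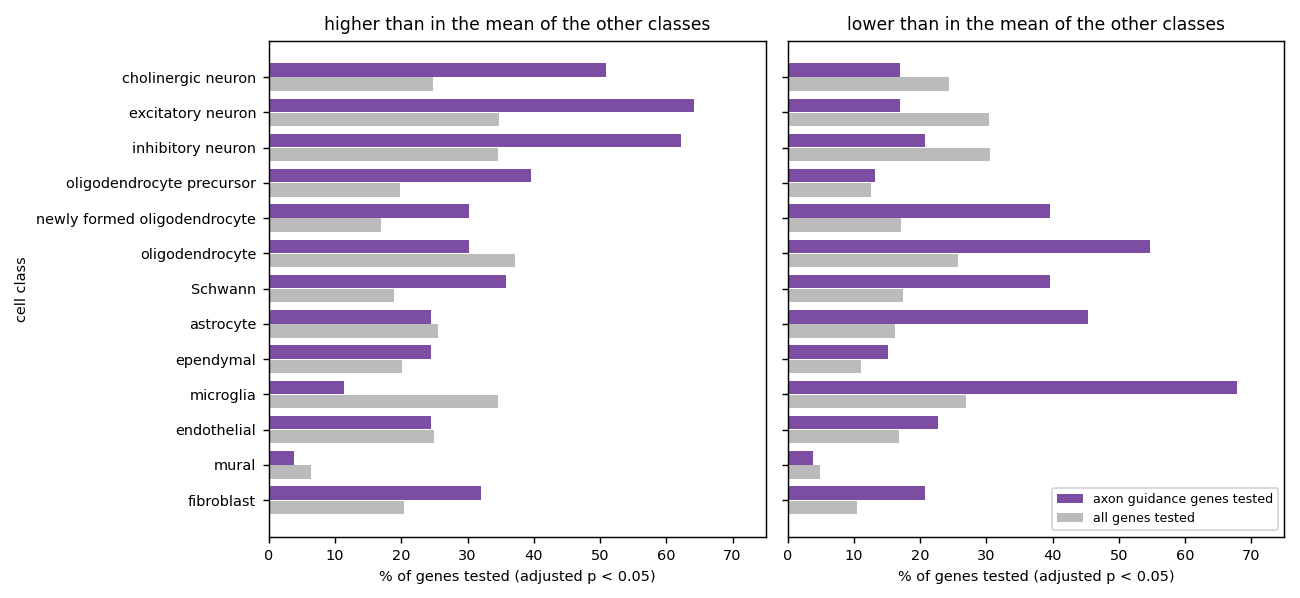
Share of the 53 axon guidance genes tested (purple) and of all 11591 genes tested (grey) that were higher (left) or lower (right) in each cell class than in the mean of the other classes, in percent at an adjusted p under 0.05. Neuron classes had the largest purple bars on the left, and microglia, with 36 of 53 members, had the largest on the right.

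By highest mean level, 12 of 37 ligands peaked in the oligodendrocyte lineage, 9 in vessels and meninges, 7 in Schwann cells, 6 in neurons and 3 in astrocytes. Among the 32 receptors, 12 peaked in neurons, 10 in vessels and meninges, 7 in the oligodendrocyte lineage and 1 each in Schwann cells, astrocytes and microglia. These are counts of the highest class, with no test, and for many members the next class was close: the library ranges of the 2 highest classes were apart for 14 members only, namely Epha7, Epha8, Epha10, Robo4, Slit3, Sema3b, Sema3c, Sema4c, Sema4d, Sema4g, Sema6c, Sema7a, Efnb3 and Plxnb3. No share over all genes is given beside these counts. Neurons, the oligodendrocyte lineage, and vessels and meninges pool several classes, while Schwann cells and microglia are 1 class each. Some vessel and meninges peaks rest on few UMIs. Epha1 (7.67 CPM) and Epha2 (31.6 CPM) peaked in mural cells with 216 and 93 UMIs over all nuclei, and Efna4 in fibroblasts with 45. Epha1 exceeded the next class in 2 of 6 libraries, and Efna3, in endothelial cells, in 1.

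**Figure D2:**
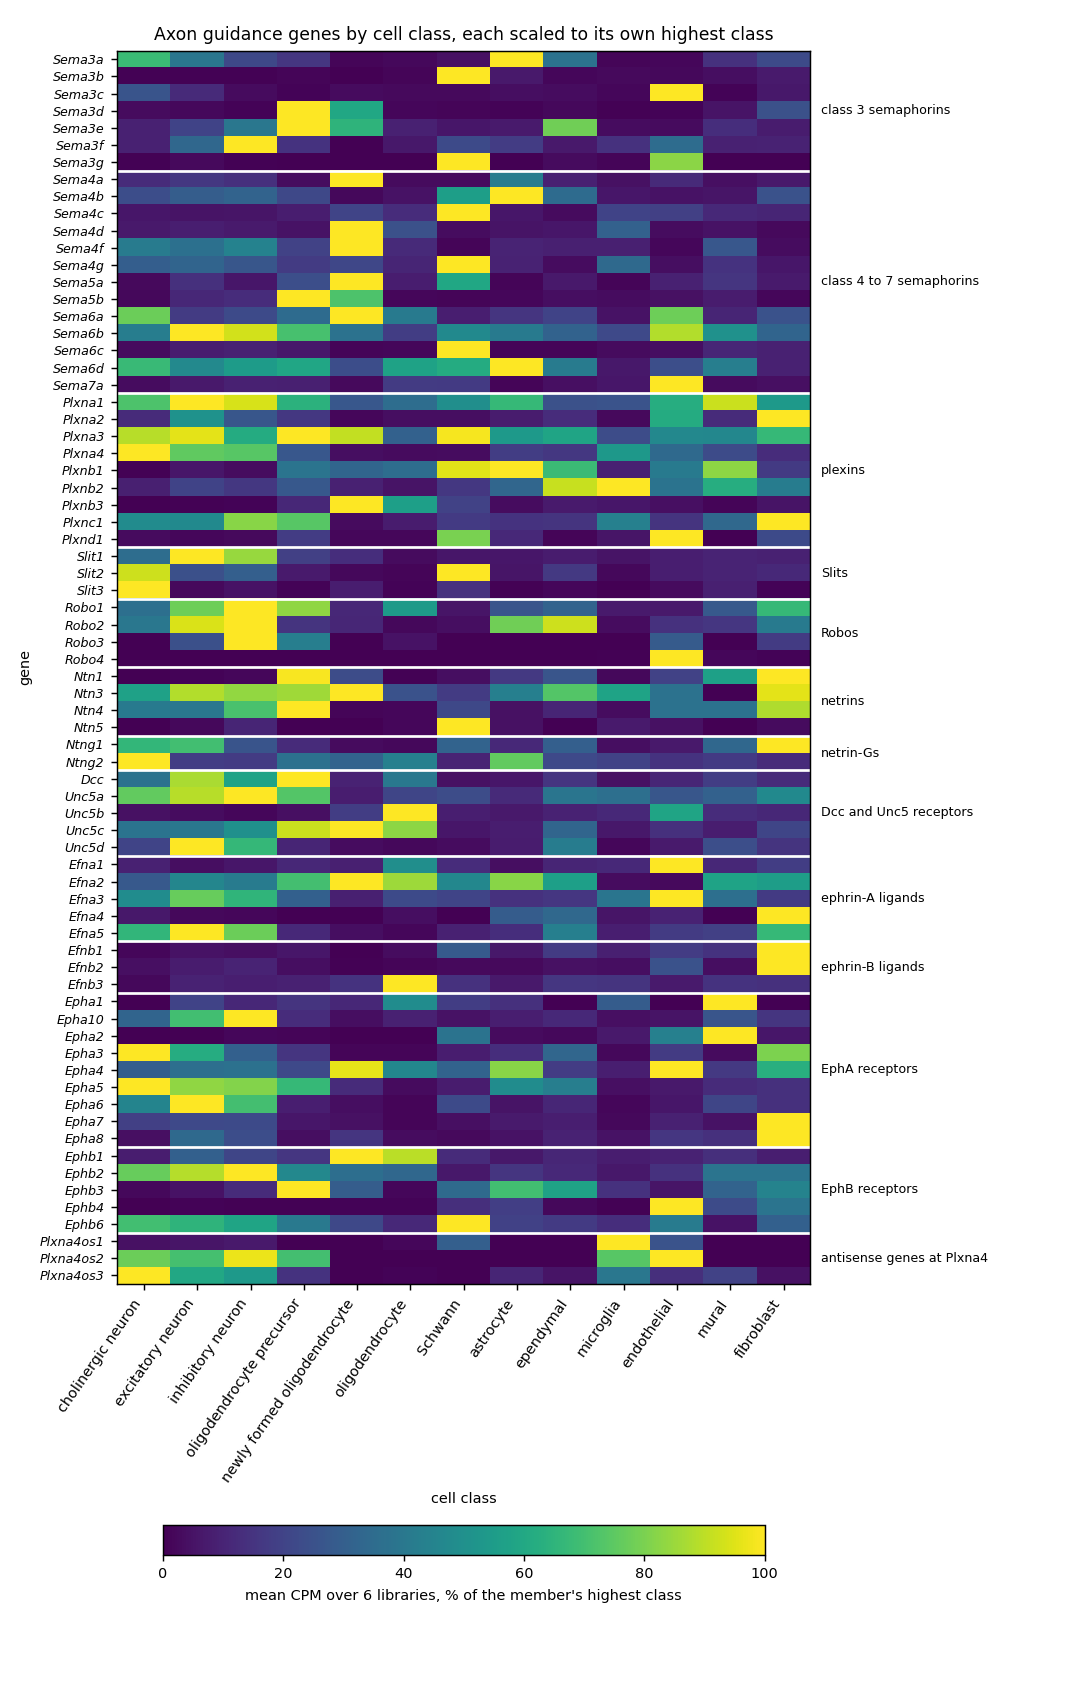
Mean CPM of each of the 72 genes (rows, by family) in each of 13 cell classes (columns), over 6 libraries and as a percentage of that gene's highest class. Slit3 is bright in cholinergic neurons, Robo4 in endothelial cells and Efnb3 in oligodendrocytes and dark nearly everywhere else, while genes such as Plxna3 are spread over many classes.

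Class 3 semaphorins, secreted ligands that act through neuropilins and plexins, peaked in precursors, Schwann cells, endothelial cells, astrocytes or inhibitory neurons, depending on the gene. Sema3d peaked in oligodendrocyte precursors, at 355, 606 and 690 CPM in PHD1-/- replicates 1 to 3, against 388, 659 and 859 CPM in PHD1+/+ replicates 1 to 3. Newly formed oligodendrocytes followed at 352 ± 90.5 CPM (SD, n = 6) and fibroblasts at 146 ± 44.5 CPM, and all 3 classes passed the class test with log2 differences of 5.42 (SE 0.14), 4.70 (SE 0.21) and 3.04 (SE 0.23). Replicate 1 was the lowest library of its group in precursors, and the groups overlapped. Sema3e, a ligand of Plxnd1 that needs no neuropilin, was also higher in oligodendrocyte precursors (log2 difference 3.01, SE 0.19), where it averaged 135 ± 50.8 CPM, and stood at 106 ± 38.3 CPM in ependymal cells. Sema3a, the founding repellent of the family and a much studied signal in motor neuron disease, peaked in astrocytes at 139, 204 and 64 CPM in PHD1-/- replicates 1 to 3, against 66.4, 149 and 22.8 CPM in PHD1+/+ replicates 1 to 3. The ranges of the groups overlapped, with replicate 3 lowest in both, and in each pair of same-numbered libraries the PHD1-/- one was higher. Of 26 members tested in astrocytes, 1 was higher and 4 were lower in all 3 pairs (19.2%, against 26% of all genes tested there). The difference between astrocytes and the mean of the other classes was called (log2 difference 3.46, SE 0.23). Cholinergic neurons came next at 73.3 ± 16.4 CPM, and the ranges of both classes overlapped. Sema3b stood at 349 ± 157 CPM in Schwann cells and 25.6 ± 7.51 CPM in fibroblasts, the next class, with library ranges apart and a log2 difference of 5.88 (SE 0.28). Sema3c, which is known for its part in heart and vessel development, was at 266, 549 and 474 CPM in endothelial cells of PHD1-/- replicates 1 to 3, against 309, 315 and 738 CPM in PHD1+/+ replicates 1 to 3. Its next class, cholinergic neurons, was at 114 ± 36.3 CPM and did not reach the endothelial range. Sema3g was split between Schwann cells (49.1 ± 31.7 CPM) and endothelial cells (40.5 ± 44.1 CPM), higher in both by the class test, from 62 and 38 UMIs. Sema3f had 1190 UMIs in all, peaked in inhibitory neurons at 19.4 ± 3.74 CPM and was not tested.

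Among the membrane-bound semaphorins, newly formed oligodendrocytes and Schwann cells held most of the peaks. Sema4d, a ligand of Plxnb1 known in immune cells and in myelinating cells, stood at 669, 993 and 856 CPM in newly formed oligodendrocytes of PHD1-/- replicates 1 to 3, against 461, 712 and 855 CPM in PHD1+/+ replicates 1 to 3. Microglia were the next class at 237 ± 42.8 CPM and mature oligodendrocytes were at 187 ± 40.0 CPM; all 6 newly formed values lay above both. Sema5a averaged 1463 ± 436 CPM in newly formed oligodendrocytes and 873 ± 332 CPM in Schwann cells, Sema4a 164 ± 55.1 CPM in newly formed oligodendrocytes and 69.5 ± 32.9 CPM in astrocytes. Their log2 differences in newly formed oligodendrocytes were 4.06 (SE 0.13) for Sema4d, 3.97 (SE 0.13) for Sema5a and 3.98 (SE 0.23) for Sema4a. Sema5b belonged to the precursors (202 ± 35.8 CPM, log2 difference 4.45, SE 0.18) and to newly formed oligodendrocytes (146 ± 54.7 CPM, 3.96, SE 0.29). Sema6a, whose product also serves as a receptor, reached 574 ± 217 CPM in newly formed oligodendrocytes, 448 ± 238 CPM in endothelial cells and 444 ± 72.1 CPM in cholinergic neurons, and these ranges overlapped. Schwann cells led for Sema6c, at 184 ± 74.4 CPM against 19.6 ± 12.7 CPM in mural cells, and for Sema4c, at 137 ± 27.5 CPM against 27.8 ± 11.9 CPM in newly formed oligodendrocytes (log2 differences 4.48, SE 0.20, and 3.40, SE 0.21). Sema7a, a GPI-anchored member, was at 202 ± 101 CPM in endothelial cells and 35.3 ± 11.2 CPM in oligodendrocytes (endothelial log2 difference 3.73, SE 0.24). Sema6d was the most counted of the semaphorins with 53526 UMIs and one of the most spread, with 746 ± 245 CPM in astrocytes and 46.9 CPM in microglia, its lowest class.

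Plexins, the receptors of semaphorins, divided by type. Plxna4, a partner of the neuropilins in sensing Sema3a, averaged 416 ± 93.9 CPM in cholinergic, 314 ± 70.1 in excitatory and 308 ± 74.3 in inhibitory neurons, with overlapping ranges, and 222 ± 86.4 CPM in microglia, where it was one of the 6 members called higher (log2 difference 1.49, SE 0.16). In oligodendrocytes it averaged 11.9 ± 2.02 CPM. The 3 antisense genes at Plxna4 had 108, 116 and 1573 UMIs, and no label or header says whether the counting kept strands apart, so reads of the gene and its antisense partners cannot be told apart with certainty. Plxnb3, whose known ligand is Sema5a, stood at 359, 348 and 425 CPM in newly formed oligodendrocytes of PHD1-/- replicates 1 to 3, against 354, 344 and 369 CPM in PHD1+/+ replicates 1 to 3. Mature oligodendrocytes were at 207 ± 24.5 CPM, apart from the newly formed ones in every library, and the log2 differences were 4.94 (SE 0.22) and 4.11 (SE 0.15). Sema5a and Plxnb3, a ligand and its receptor, were both higher in newly formed oligodendrocytes, and each was called higher in 4 of 13 classes. Plxnb2 was at 91.9 ± 49.3 CPM in microglia and 84.3 ± 29.5 CPM in ependymal cells, higher in both. Plxna2 averaged 547 ± 276 CPM in fibroblasts and 337 ± 224 CPM in endothelial cells (log2 differences 3.10, SE 0.14, and 1.94, SE 0.19). Plxnd1, the endothelial receptor of Sema3e, was at 47.1 ± 22.4 CPM in endothelial cells and 37.6 ± 19.9 CPM in Schwann cells, from 41 UMIs in the endothelial class, with log2 differences of 4.23 (SE 0.44) and 3.80 (SE 0.44).

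Of the Slits, secreted ligands of the Robos, Slit2 and Slit3 were highest outside the excitatory and inhibitory neurons and Slit1 within them. Slit3 peaked in cholinergic neurons, a class with Chat, the enzyme that makes acetylcholine, among its leading genes, at 1881, 1473 and 1387 CPM in PHD1-/- replicates 1 to 3, against 1804, 1336 and 1130 CPM in PHD1+/+ replicates 1 to 3. All 6 values lay above every Schwann cell value, the next class, where the mean was 216 ± 95.7 CPM. The log2 difference in cholinergic neurons was 5.72 (SE 0.13, adjusted p = 1.2e-50 by edgeR), and the ranges of PHD1-/- and PHD1+/+ libraries overlapped, although the PHD1-/- library was higher in each same-numbered pair. Of 29 members tested in cholinergic neurons, 5 were higher and 5 lower in all 3 pairs (34.5%, against 29.5% of all genes tested there). Another cluster of 33 nuclei, led by Uts2, Slc5a7, Spp1 and Slc18a3, held Chat at 177 CPM, against 230 CPM in the cholinergic class, but stayed unnamed and is not part of that class. It held 4 Slit3 UMIs, or 58.9 CPM (95% exact Poisson interval 16.03 to 150.7 CPM, for counting error only). A further cluster of 40 nuclei, led by Nos1, held Chat at 163 CPM and was placed among the inhibitory neurons. Its Slit3 level was not read. Slit2 was high in Schwann cells, at 773, 1109 and 1501 CPM in PHD1-/- replicates 1 to 3, against 672, 1428 and 1471 CPM in PHD1+/+ replicates 1 to 3 and cholinergic neurons. The cholinergic values were 1046, 1133 and 1467 CPM in PHD1-/- replicates 1 to 3, against 832, 1165 and 794 CPM in PHD1+/+ replicates 1 to 3. Both classes were called (log2 differences 3.34, SE 0.22, and 3.55, SE 0.21) and their ranges overlapped. Slit1 was a gene of excitatory (90.0 ± 10.7 CPM, log2 difference 3.26, SE 0.14) and inhibitory neurons (76.1 ± 4.93 CPM), and oligodendrocytes, its lowest class, had 2.60 CPM.

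The Robos, their receptors, were highest in inhibitory neurons or endothelial cells. Robo1 averaged 1418 ± 212 CPM in inhibitory neurons, 1186 ± 146 in oligodendrocyte precursors and 1106 ± 286 in excitatory neurons, and was at 79.6 CPM in Schwann cells, its lowest class. Robo2 stood at 874 ± 57.5 CPM in inhibitory neurons, 826 ± 85.3 in excitatory neurons, 808 ± 133 in ependymal cells and 683 ± 145 in astrocytes, with neighbours overlapping in that order, and 18.9 CPM in oligodendrocytes, its lowest class. Ependymal cells held neuron markers at a summed 5272 CPM beside this Robo2 level. Robo4, the endothelial Robo, was counted mostly in that class: 72 of its 126 UMIs over all nuclei came from endothelial cells, which made up 476 of 41906 nuclei. Endothelial values were 50.6, 137 and 151 CPM in PHD1-/- replicates 1 to 3, against 42.2, 92.6 and 86.2 CPM in PHD1+/+ replicates 1 to 3, and the next class, mural cells, averaged 1.74 CPM. The value of 137 CPM comes from 11 nuclei and lies below the 206 CPM that 3 UMIs make in that library. The fitted log2 difference of Robo4, 8.24 (SE 0.43), rests on classes at 0 and depends on the prior count of the fit. Robo3 had 247 UMIs, peaked in inhibitory neurons at 5.54 ± 3.57 CPM and was not tested.

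Robo4 was 1 of 6 members with a log2 difference over 3 in endothelial cells, with Sema3g, Ephb4, Sema3c, Plxnd1 and Sema7a, and their promoters were searched for the ETS core, the DNA letters bound by a family of factors that many endothelial genes use. The letters were CNGGAAG on either strand, in the 300 bases around each RefSeq start (250 before to 50 after, GRCm38.p6). Of the 6 promoters, 3 held the letters, as did 31.9% of all 32851 promoters in the table, which counts a gene once per start. The 3 are shown 5′ to 3′ on the strand of the gene with the match in capitals: Robo4 (chr9:37401722-37402021, plus strand), Ephb4 (chr5:137349859-137350158, plus strand) and Sema3g (chr14:31217623-31217922, plus strand). A match is a description of the letters and not a measured site.
Robo4: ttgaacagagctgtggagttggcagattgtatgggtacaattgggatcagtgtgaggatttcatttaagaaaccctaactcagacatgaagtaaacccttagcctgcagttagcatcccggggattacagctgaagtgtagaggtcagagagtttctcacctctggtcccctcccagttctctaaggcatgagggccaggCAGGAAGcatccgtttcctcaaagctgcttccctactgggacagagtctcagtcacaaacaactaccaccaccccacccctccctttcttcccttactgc
Ephb4: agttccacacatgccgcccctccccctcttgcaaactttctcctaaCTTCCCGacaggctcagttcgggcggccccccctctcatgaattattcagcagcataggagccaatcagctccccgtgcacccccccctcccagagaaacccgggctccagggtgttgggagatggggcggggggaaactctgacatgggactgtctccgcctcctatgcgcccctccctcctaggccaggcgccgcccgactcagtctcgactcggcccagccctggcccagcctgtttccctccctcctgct
Sema3g: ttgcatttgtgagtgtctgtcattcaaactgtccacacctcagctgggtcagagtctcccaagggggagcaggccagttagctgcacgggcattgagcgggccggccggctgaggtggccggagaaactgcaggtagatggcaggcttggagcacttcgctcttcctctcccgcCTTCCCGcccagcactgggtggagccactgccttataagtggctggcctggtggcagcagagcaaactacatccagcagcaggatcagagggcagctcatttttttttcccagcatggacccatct

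The 2 netrins tested, Ntn1 and Ntn4, were higher in oligodendrocyte precursors, fibroblasts and endothelial cells and lower in mature oligodendrocytes and microglia. Ntn1, the first netrin known to attract commissural axons, was at 149, 358 and 315 CPM in oligodendrocyte precursors of PHD1-/- replicates 1 to 3, against 133, 335 and 236 CPM in PHD1+/+ replicates 1 to 3. Fibroblasts averaged 257 ± 121 CPM and precursors 254 CPM, and both classes were called (log2 differences 4.06, SE 0.13, in precursors and 3.87, SE 0.15, in fibroblasts). Cholinergic neurons had 2 Ntn1 UMIs in all. Ntn4, a laminin-binding netrin, averaged 44.0 ± 14.8 CPM in precursors, 38.7 ± 27.5 in fibroblasts and 31.3 ± 4.97 in inhibitory neurons. Ntn3 (887 UMIs) and Ntn5 (117 UMIs) were not tested. The netrin-Gs, membrane-anchored relatives that bind the NGL proteins rather than Dcc, followed no common pattern over the classes. Both were higher in cholinergic neurons, while in excitatory and inhibitory neurons Ntng1 was higher and Ntng2 lower. Ntng1 reached 390 ± 27.8 CPM in excitatory neurons and 370 ± 204 in cholinergic neurons, but by class it was highest in fibroblasts, at 559 ± 160 CPM. Fibroblasts also carried neuron markers at a summed 6635 CPM, whose part in the result was not tested. The excitatory class pools subclusters that, as read below, ran from 9.51 to 1182 CPM of Ntng1. Ntng2 stood at 80.9 ± 10.3 CPM in cholinergic neurons and 61.6 ± 10.6 in astrocytes, but at 14.6 ± 2.28 CPM in excitatory neurons (log2 difference -0.45, SE 0.16) and 13.96 ± 2.22 in inhibitory neurons (-0.54, SE 0.16), below the 35.1 ± 6.20 CPM of mature oligodendrocytes.

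Dcc, the netrin receptor that mediates attraction, was at 1325, 1732 and 2251 CPM in oligodendrocyte precursors of PHD1-/- replicates 1 to 3, against 1447, 1913 and 2131 CPM in PHD1+/+ replicates 1 to 3. Excitatory neurons followed at 1573 ± 206 CPM and overlapped, and microglia were lowest at 77.4 CPM. Within the excitatory class, the subclusters read below ran from 47.6 to 5038 CPM of Dcc. Precursors held neuron markers at a summed 8962 CPM, against 28060 CPM in excitatory neurons. Ntn1 and Dcc were both called higher in precursors, Ntn1 being called higher in 7 of 13 classes and Dcc in 5. The Unc5 receptors, which turn the netrin response into repulsion, had their highest levels in different classes. Unc5b stood at 105, 150 and 152 CPM in oligodendrocytes of PHD1-/- replicates 1 to 3, against 74.7, 196 and 114 CPM in PHD1+/+ replicates 1 to 3 (log2 difference 4.02, SE 0.14), and at 2.37 CPM in inhibitory neurons. Unc5c was highest in the oligodendrocyte lineage, at 1226 ± 315 CPM in precursors, 1330 ± 412 in newly formed and 1106 ± 221 in mature oligodendrocytes, with all ranges overlapping. Inhibitory, excitatory and cholinergic neurons came next, and Unc5c was called higher in 6 of 13 classes. Unc5d was highest in excitatory neurons, at 687 ± 95.9 CPM, and in inhibitory neurons, at 459 ± 140 CPM (log2 differences 3.66, SE 0.18, and 3.05, SE 0.18). It was called higher in 4 of 13 classes, and its means in ependymal and mural cells were above that in cholinergic neurons. Unc5a, at most 19.5 ± 10.1 CPM in inhibitory neurons, was not tested.

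The promoters of those with a log2 difference over 3 in oligodendrocytes (Plxnb3, Unc5b and Efnb3) or precursors (Sema3d, Sema5b, Ntn1 and Sema3e) were searched for ACAANG on either strand, the core letters of SOX factors, which include the Sox10 of this lineage. Efnb3 and Ntn1 had no entry. The letters were found in 2 of 2 oligodendrocyte and 2 of 3 precursor promoters, and in 41.2% of all 32851 promoters. Plxnb3 (chrX:73756853-73757152, plus strand), Unc5b (chr10:60831532-60831831, minus strand) and Sema3d (chr5:12382916-12383215, plus strand) are shown as above, matches in capitals.
Plxnb3: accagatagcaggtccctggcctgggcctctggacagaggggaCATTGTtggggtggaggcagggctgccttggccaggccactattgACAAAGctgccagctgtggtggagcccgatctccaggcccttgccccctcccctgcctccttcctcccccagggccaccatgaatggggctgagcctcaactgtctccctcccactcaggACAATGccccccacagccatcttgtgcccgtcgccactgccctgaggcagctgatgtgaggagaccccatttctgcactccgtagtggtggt
Unc5b: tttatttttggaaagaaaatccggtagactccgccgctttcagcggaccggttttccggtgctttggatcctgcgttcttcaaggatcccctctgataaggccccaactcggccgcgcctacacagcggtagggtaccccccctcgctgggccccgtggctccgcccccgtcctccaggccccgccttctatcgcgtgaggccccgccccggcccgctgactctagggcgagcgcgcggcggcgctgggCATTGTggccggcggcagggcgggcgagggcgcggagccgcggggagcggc
Sema3d: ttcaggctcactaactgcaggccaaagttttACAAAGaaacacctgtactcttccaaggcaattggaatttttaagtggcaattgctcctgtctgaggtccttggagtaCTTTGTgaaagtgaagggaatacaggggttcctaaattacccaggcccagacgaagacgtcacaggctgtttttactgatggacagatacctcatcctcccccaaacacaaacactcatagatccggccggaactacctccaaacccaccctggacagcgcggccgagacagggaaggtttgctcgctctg

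Ephrins and Eph receptors signal at cell contacts, and in both directions. Ephrin-A ligands are held by a lipid anchor, and Efna5 was the only one tested: it averaged 512 ± 70.6 CPM in excitatory, 396 ± 48.8 in inhibitory and 338 ± 57.6 in cholinergic neurons, against 9.02 CPM in oligodendrocytes, its lowest class. Fibroblasts, at 343 ± 148 CPM, lay within the neurons' range. The other ephrin-A ligands had 45 (Efna4) to 2144 UMIs (Efna3) in all. Efna3 was at 21.4 ± 8.54 CPM in excitatory neurons and, from 8 UMIs, at 27.9 ± 53.9 CPM in endothelial cells, and Efna2 at 15.7 ± 9.21 CPM in newly formed and 13.4 CPM in mature oligodendrocytes. The transmembrane ephrin-B ligands peaked in oligodendrocytes (Efnb3) or fibroblasts (Efnb1 and Efnb2). Efnb3, known as a block to axons in myelin, was at 465, 446 and 444 CPM in oligodendrocytes of PHD1-/- replicates 1 to 3, against 519, 432 and 427 CPM in PHD1+/+ replicates 1 to 3, and its highest value in the next class, ependymal cells, was 146 CPM (log2 difference 3.78, SE 0.13). Efnb2, an arterial marker in vessels, averaged 210 ± 97.2 CPM in fibroblasts and 53.4 ± 41.1 in endothelial cells, and Efnb1 64.7 ± 34.5 CPM in fibroblasts. Both were called in fibroblasts (log2 differences 4.61, SE 0.15, and 4.02, SE 0.27).

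Of the 6 EphA receptors tested, 5 were higher in each of the neuron classes and all 6 were lower in microglia. Of all genes tested, 34.8% were higher in excitatory, 34.7% in inhibitory and 24.8% in cholinergic neurons, and 27% were lower in microglia. Epha6 averaged 686 ± 92.4 CPM in excitatory and 480 ± 95.5 in inhibitory neurons (log2 differences 3.62, SE 0.19, and 3.06, SE 0.20), Epha10 207 ± 14.6 CPM in inhibitory and 144 ± 25.3 in excitatory neurons, with ranges apart (inhibitory 3.25, SE 0.16). Epha5 was highest in cholinergic neurons, at 640, 686 and 658 CPM in PHD1-/- replicates 1 to 3, against 491, 666 and 484 CPM in PHD1+/+ replicates 1 to 3. The group ranges overlapped, and the class overlapped with excitatory neurons at 503 ± 23.8 CPM. The PHD1-/- library was higher in each same-numbered pair, as for 5 of 29 members tested in cholinergic neurons, with 5 others lower in each. Members with 1 direction in all 3 pairs made up 34.5%, against 29.5% of all genes tested there. Epha3 was at 112 ± 37.3 CPM in cholinergic neurons (log2 difference 3.58, SE 0.25) and 90.1 ± 34.9 in fibroblasts. Epha4, a receptor studied as a modifier of motor neuron disease, was spread: 148 ± 57.2 CPM in endothelial cells, 143 ± 44.3 in newly formed oligodendrocytes and 122 ± 22.1 in astrocytes, with overlapping ranges, and 44.1 ± 14.6 CPM in cholinergic neurons. Epha7 peaked in fibroblasts, at 314, 565 and 493 CPM in PHD1-/- replicates 1 to 3, against 258, 465 and 503 CPM in PHD1+/+ replicates 1 to 3, with inhibitory neurons next at 97.2 ± 16.2 CPM (fibroblast log2 difference 3.78, SE 0.15). Among EphB receptors, Ephb1 was at 519 ± 181 CPM in newly formed and 466 ± 83.4 in mature oligodendrocytes, Ephb2 at 113 ± 10.3 CPM in inhibitory and 100.0 ± 10.5 in excitatory neurons, and Ephb6, which lacks kinase activity, at 48.0 ± 26.7 CPM in Schwann cells and 33.4 ± 12.9 in cholinergic neurons. Ephb4, the venous partner of Efnb2, had 42 of its 255 UMIs in endothelial cells, at 74.9 ± 68.6 CPM, and was also called in fibroblasts at 28.9 ± 18.3 CPM (log2 differences 4.72, SE 0.49, and 4.07, SE 0.44). Its highest endothelial value was 206 CPM, the level that 3 UMIs make in PHD1-/- replicate 2.

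**Figure D3:**
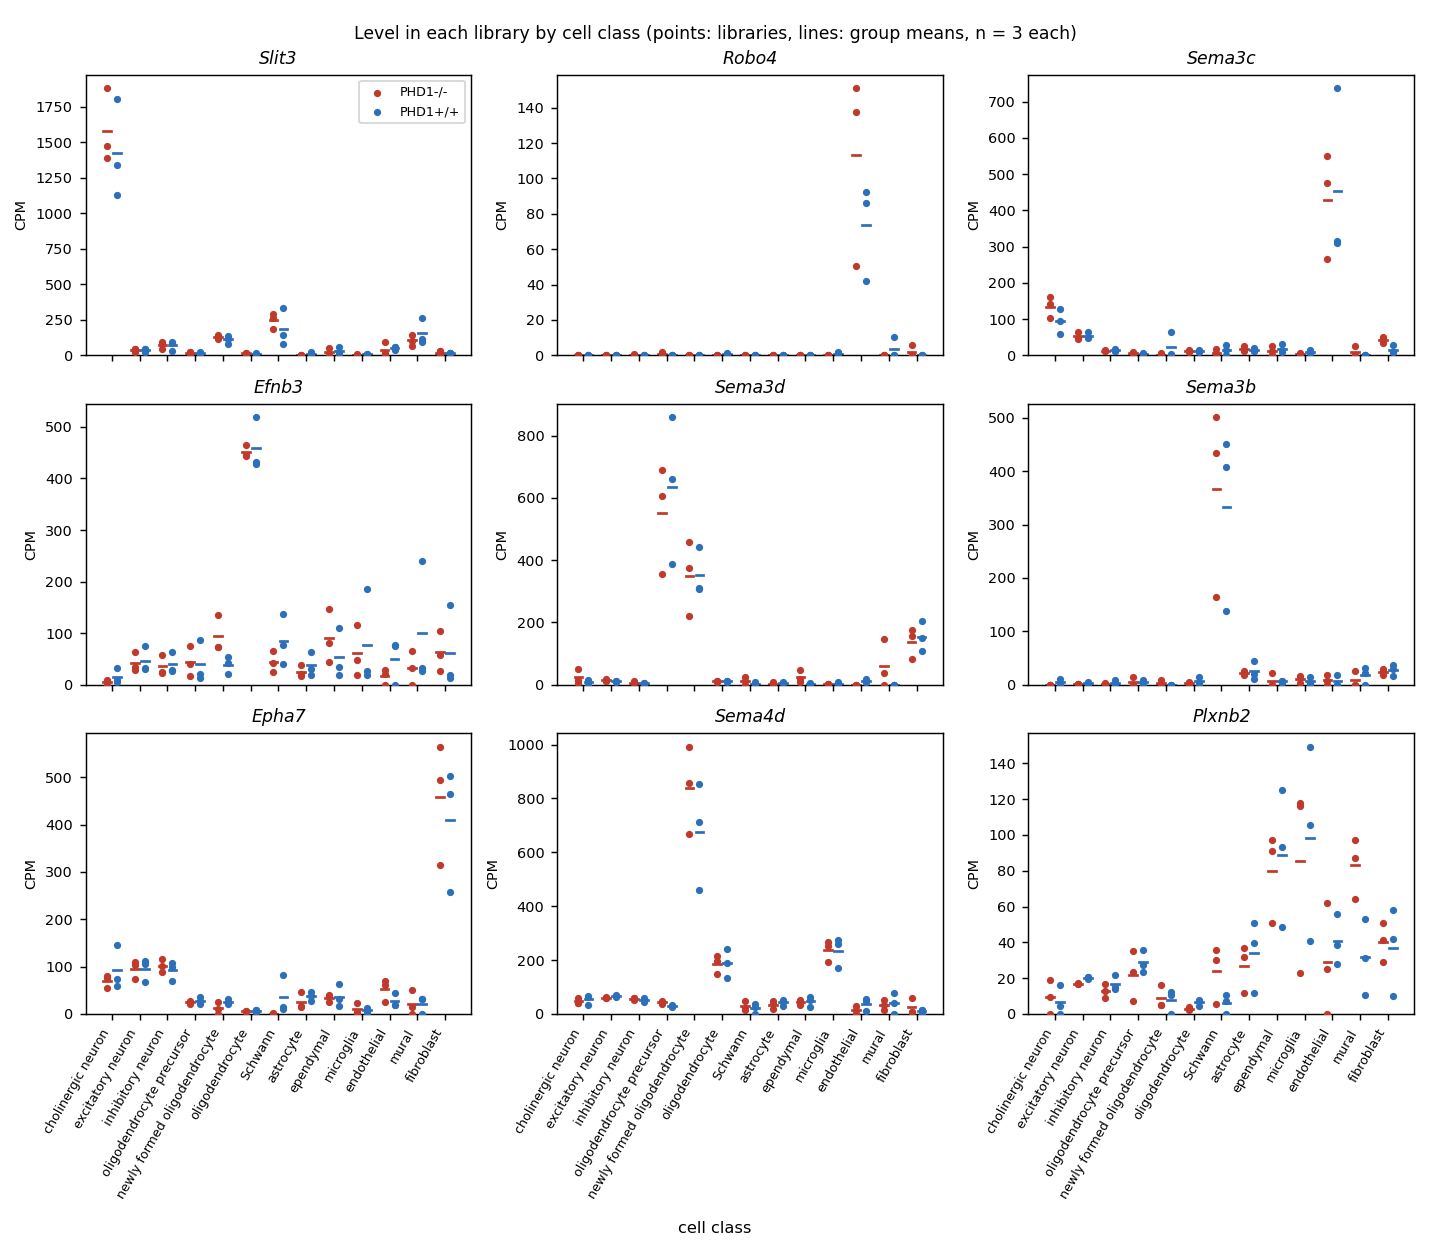
Level (CPM) of 9 genes in each of 13 cell classes, with a point for each library (red PHD1-/-, left; blue PHD1+/+, right) and a line for each group's mean (n = 3 each). Slit3 lies between 1130 and 1881 CPM in cholinergic neurons and Efnb3 between 427 and 519 CPM in oligodendrocytes, and the groups overlap in both.

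Within neurons, guidance genes split the excitatory and inhibitory classes further. The neurons fell into 23 subclusters with enough counts (14 excitatory, 8 inhibitory and the cholinergic one), again formed without the members, and each is named here by its leading gene; the values are descriptions with no test. Sema3e was at 331 ± 89.3 CPM in the Cacna2d3-led inhibitory subcluster N18, 28.3 times its median over subclusters, and Sema3c at 339 ± 21.6 CPM in the Tac2-led excitatory subcluster N4, 18.9 times its median. Ntng1 reached 1182 ± 232 CPM in the Npff-led and 925 CPM in the Tafa1-led excitatory subclusters, against 9.51 CPM in the Pde11a-led one. Dcc averaged 5038 ± 1005 CPM in the Tafa1-led subcluster and 47.6 CPM in the Pde11a-led one. Robo1 was at 2255 ± 243 CPM in the Cdh18-led subcluster and 47.2 CPM in the Cpne4-led one, where Epha7 (331 ± 56.5 CPM) and Ntn4 (114 ± 29.2 CPM) were highest. Slit3 in the cholinergic subcluster was 82.9 times its median over the 23. Against the mean of all other clusters Slit3 was the leading gene of the cholinergic neurons, and against the clusters outside neurons it came after Nrg1.

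**Figure D4:**
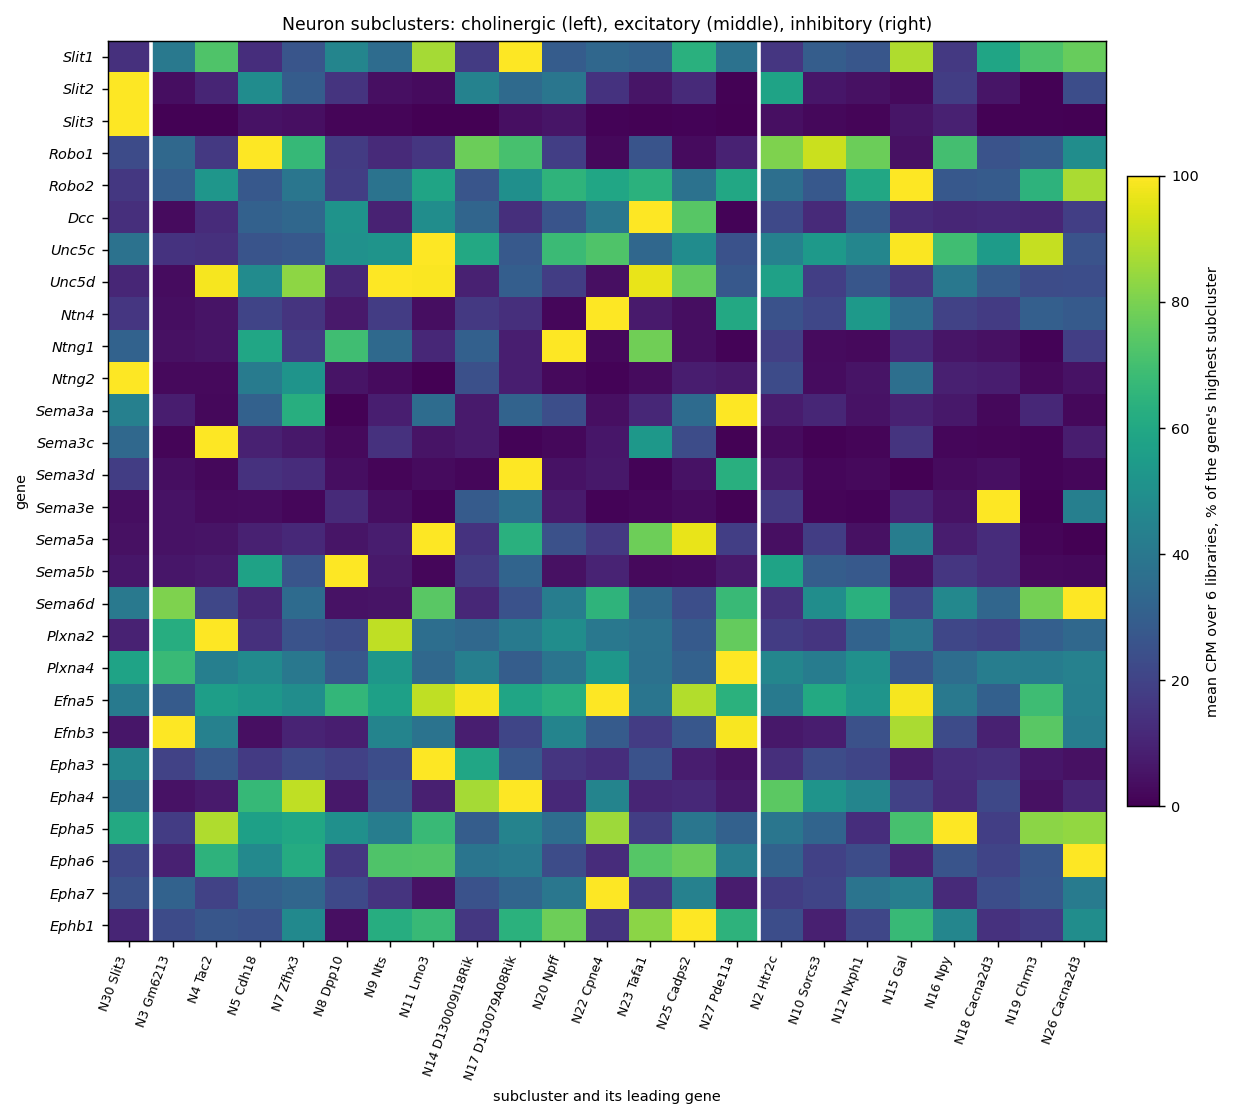
Mean CPM of 28 members (rows) over 6 libraries in 23 neuron subclusters (columns, named by number and leading gene), as a percentage of each gene's highest subcluster. Slit3 averages 1502 CPM in the cholinergic subcluster N30 and 138 CPM in N16, the next one, and Sema3c, Sema3d and Sema3e each peak in a different subcluster.

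Partners outside the 72 were read from 2 lists. Of 21 co-receptors and other cue receptors, Nrp1, the Sema3 co-receptor, was at 448 ± 125 CPM in microglia and 349 ± 270 in endothelial cells, and Nrp2 at 180 ± 162 CPM in endothelial cells. Neo1, a receptor of netrins and RGM proteins, was at 458 ± 151 CPM in newly formed and 431 ± 94.6 in mature oligodendrocytes. Dscam, another netrin receptor, was at 2717 ± 793 CPM in oligodendrocyte precursors. That class also had the highest mean of Dcc, although the Tafa1-led excitatory subcluster, at 5038 CPM of Dcc, stood above it. The 5 collapsin response mediators, which carry Sema3a signals to microtubules, peaked in cholinergic neurons (Crmp1 and Dpysl5) or newly formed oligodendrocytes (Dpysl2 and Dpysl4), while Dpysl3 averaged 189 ± 24.8 CPM in cholinergic neurons and 189 ± 33.7 CPM in oligodendrocyte precursors. By genotype, 0 of the 21 and 0 of the 5 were called in all nuclei by edgeR's quasi-likelihood test, with 0 of each at an unadjusted p under 0.05, and 0 were called in any class. Their median log2 differences between PHD1-/- and PHD1+/+ over all nuclei were 0.04 for the 21 and -0.08 for the 5, against -0.01 over all genes tested; all 5 mediators had negative values.

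No member differed between PHD1-/- and PHD1+/+ mice after adjustment. Across all nuclei and the 13 classes, 451 tests of members were made (edgeR quasi-likelihood), of which 0 were called, as were 0 of all genes (0%) in each of the 14 comparisons; DESeq2 also called 0. At an unadjusted p under 0.05 there were 3 of 451 (2 by DESeq2), or 0.665%, against 0.877% of all gene tests. Members' log2 differences ran between -1.31 and 1.14, with 217 positive and 234 negative, and their median within a comparison between -0.19 in endothelial cells and 0.29 in mural cells, where 5 members were tested. In 16 of the 451 tests (3.55%) the libraries of the groups did not overlap, against 5.03% of all gene tests. With the replicate number as a block, 0 members were called, against 0.0883% of all gene tests, and 31 of 451 (6.87%) had an unadjusted p under 0.05, against 6.49%. All 3 same-numbered pairs differed in 1 direction in 131 of the 451 tests (29%), 62 of them higher and 69 lower in PHD1-/-, against 28.3% of all gene tests. On simulated counts a 4-fold change was called for 99% of changed genes in oligodendrocytes (12657 genes) and 93% in astrocytes (7355 genes), and a 2-fold change for 53% and 39%, so a 2-fold difference could be missed at this depth. The simulation gave every gene the same spread between libraries and left out the shift of replicate 1. It changed only genes with higher counts. Recovery at the spread of the real libraries, or for members with few UMIs, was not tested and may be lower. In sums over the nuclei of a class, a change in its mix of subtypes and a changed level per nucleus were not told apart. With replicates 2 and 3 alone, edgeR again called 0 members.

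The members with the smallest p are given as values. Plxnb2 in oligodendrocytes was at 3.74, 3.27 and 2.13 CPM in PHD1-/- replicates 1 to 3, against 7.47, 7.91 and 4.24 CPM in PHD1+/+ replicates 1 to 3. The groups did not overlap, but the values come from 108 UMIs in the class where Plxnb2 is lowest (log2 difference -1.13, SE 0.39, unadjusted p = 0.021, adjusted p = 1 by edgeR). Microglia markers, a class where Plxnb2 is high, summed to 137 to 304 CPM in PHD1-/- and 142 to 418 CPM in PHD1+/+ oligodendrocytes; their part in the result was not tested. Over all nuclei Plxnb2 was at 13.8, 17.3 and 17.2 CPM in PHD1-/- replicates 1 to 3, against 20.4, 23.7 and 18.9 CPM in PHD1+/+ replicates 1 to 3, again without overlap (log2 difference -0.38, SE 0.18, edgeR unadjusted p = 0.082). In microglia, its highest class, it was at 22.7, 116 and 118 CPM in PHD1-/- replicates 1 to 3, against 40.5, 149 and 105 CPM in PHD1+/+ replicates 1 to 3, and the groups overlapped. Efnb3 in newly formed oligodendrocytes was at 73.5, 135 and 72.6 CPM in PHD1-/- replicates 1 to 3, against 42.9, 53.2 and 21.1 CPM in PHD1+/+ replicates 1 to 3, from 68 UMIs (log2 difference 1.14, SE 0.45, edgeR unadjusted p = 0.030, adjusted p = 1). Oligodendrocyte markers in that class summed to 13100 to 15460 CPM in PHD1-/- and 11880 to 16900 CPM in PHD1+/+ libraries. Dcc in endothelial cells was at 120, 0 and 158 CPM in PHD1-/- replicates 1 to 3, against 251, 389 and 240 CPM in PHD1+/+ replicates 1 to 3 (log2 difference -1.27, SE 0.53, edgeR unadjusted p = 0.033, adjusted p = 1). The value of 0 comes from the 11 endothelial nuclei of PHD1-/- replicate 2. Neuron markers moved with Dcc, at 343 to 4165 CPM in PHD1-/- and 4389 to 6945 CPM in PHD1+/+ endothelial libraries, and their part in the result was not tested.

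In cholinergic neurons, 29 members were tested and the 3 with the smallest p were Unc5c, Slit2 and Unc5d. Unc5c averaged 395 CPM in PHD1-/- and 616 CPM in PHD1+/+ libraries (log2 difference -0.64, SE 0.30), Slit2 1215 and 931 CPM (0.38, SE 0.23) and Unc5d 118 and 161 CPM (-0.56, SE 0.35), with unadjusted p of 0.052, 0.13 and 0.14 by edgeR and overlapping libraries in each. In astrocytes Epha4 averaged 110 CPM in PHD1-/- and 134 CPM in PHD1+/+ libraries (-0.31, SE 0.25), Efna5 53.3 and 79.0 CPM (-0.58, SE 0.50) and Sema3a 136 and 79.4 CPM (0.67, SE 0.60). With 1 library left out, Sema3a was lowest at 0.28, when PHD1-/- replicate 2 was dropped, and highest at 1.52, when PHD1+/+ replicate 2 was. Efna5 likewise ran between -1.25, when PHD1-/- replicate 1 was dropped, and -0.21, when PHD1+/+ replicate 1 was. With the replicate block, Sema3a had an unadjusted p of 0.0030 and an adjusted p of 0.73 by edgeR. In oligodendrocyte precursors Ntng2 averaged 38.5 CPM in PHD1-/- and 21.6 CPM in PHD1+/+ libraries without overlap (0.77, SE 0.35, edgeR unadjusted p = 0.051). In microglia the member of smallest p was Sema4g, at 33.3 CPM in PHD1-/- and 22.3 CPM in PHD1+/+ libraries (0.51, SE 0.35). In fibroblasts it was Unc5d, at 141 CPM in PHD1-/- and 67.0 CPM in PHD1+/+ libraries (1.01, SE 0.45), and in Schwann cells Efnb3, at 43.7 CPM and 85.4 CPM (-1.12, SE 0.55). None of these was called. Plxnb1, a receptor of Sema4d, headed both excitatory neurons (3.95 CPM in PHD1-/- and 5.70 CPM in PHD1+/+) and inhibitory neurons (2.15 CPM and 3.23 CPM), at levels far below those of astrocytes, where it peaked. The remaining members among the 3 of smallest p in each comparison had unadjusted p of 0.065 or more by edgeR, with log2 differences of PHD1-/- over PHD1+/+ as follows. Over all nuclei Ntn3 was at 0.33 and Ntng2 at 0.20. In Schwann cells Plxnb1 was at -0.67 and Unc5c at -0.62, and in fibroblasts Plxna4 at 0.99 and Sema5a at 0.60. In endothelial cells Unc5c was at -1.07 and Robo2 at -0.71, both, like Dcc there, with lower means in PHD1-/- libraries, and without 1 library Robo2 ranged between -1.60 and -0.27 (the end values come from dropping PHD1-/- replicates 3 and 1). In ependymal cells Sema6a was at 0.72, Dcc at -0.89 and Unc5d at -0.50, and in mural cells Dcc at -0.88, Sema5a at 0.49 and Sema6d at 0.29. Without 1 library Dcc ranged between -1.96 and -0.42 in ependymal and between -1.50 and -0.19 in mural cells, lowest when PHD1-/- replicate 1 and highest when PHD1+/+ replicate 1 was dropped. In newly formed oligodendrocytes Robo2 was at 1.01 and Sema3e at 0.47, in mature ones Sema4f at -0.66 and Sema4g at -0.53, and in precursors Plxnb3 at -0.64 and Sema4d at 0.43. In microglia Plxnc1 was at -0.44 and Efna5 at 0.21, in excitatory neurons Robo3 at -0.57 and Plxnb2 at -0.25, and in inhibitory neurons Ephb3 at -0.62 and Plxna4os2 at -0.63. Whether a genotype difference varied between classes was tested as an interaction over 53 members: 0 were called and 1 had an unadjusted p under 0.05 (Sema4c, 0.021), against 1.4% of 11591 genes. On simulated counts this test called 75% of 4-fold and 4% of 2-fold interactions, placed in microglia, so the count of 0 says little about differences of 2-fold or less. That simulation had the same limits as the one for genotype, so recovery in the real libraries may be lower.

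**Figure D5:**
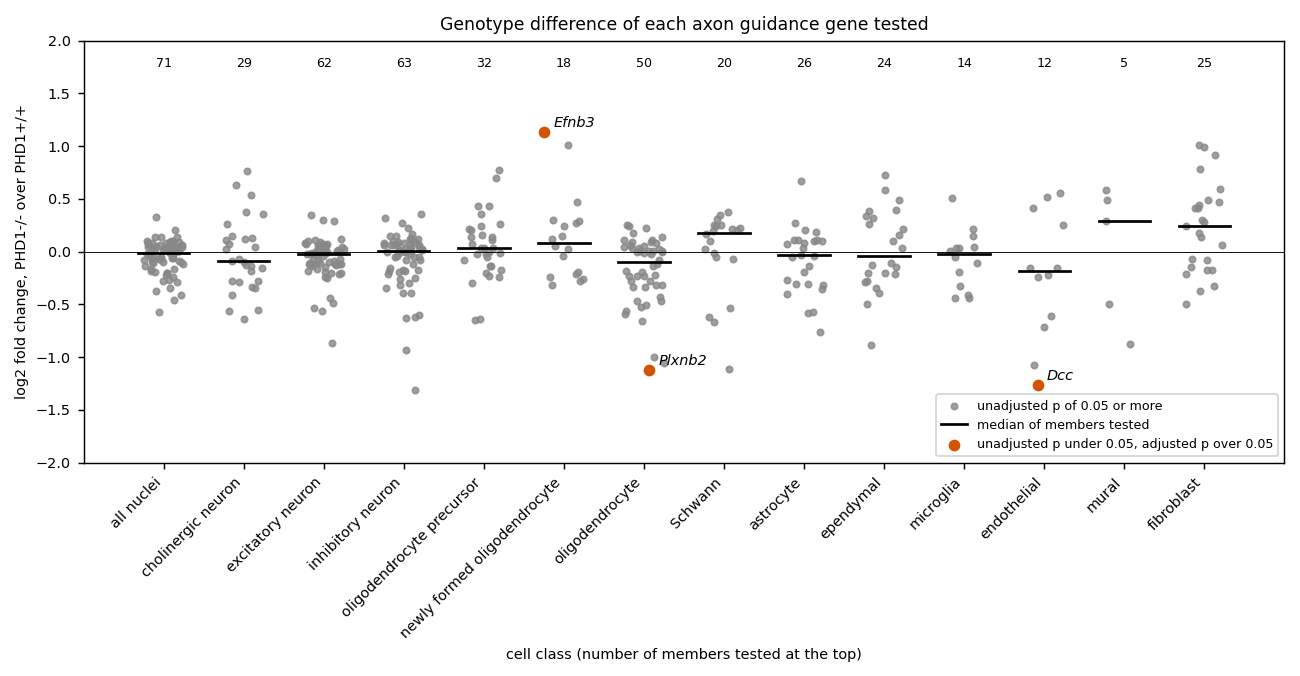
Log2 fold change of PHD1-/- over PHD1+/+ for each member tested (points), in all nuclei and in each class, with the number tested at the top and the median as a line. Plxnb2, Efnb3 and Dcc, in orange, are the 3 with an unadjusted p under 0.05, and none passed adjustment.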

How the data were processed

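The deposited files hold UMI counts per gene and nucleus, made by the authors with Cell Ranger, as 10x 3' libraries aligned to mm10. Per the submitters' processing notes the tools were Scanpy 1.8.1 and Cell Ranger 5.0.2, but the file headers give Cell Ranger 5.0.1. No header or label says whether intronic reads entered or strand was used. Kept nuclei had 500 or more UMIs, 300 or more genes and no more than 5% of mitochondrial counts, and doublets were called per library with Scrublet, which marked 0 and 1 nuclei in replicate 1 of PHD1+/+ and PHD1-/- and so did not work there. Nuclei were clustered in Scanpy 1.11.5 (2000 variable genes without the 72 members, 30 principal components, 15 neighbours, Leiden resolution 1) and clusters were named from marker lists; 6075 nuclei stayed unnamed and 62 macrophage-like nuclei were too few. UMIs were summed per library and class, for classes with at least 10 nuclei in every library, and levels are CPM of that sum.

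Tests were edgeR 4.0.16 quasi-likelihood fits in R 4.3.3 (TMM, filterByExpr, Benjamini-Hochberg over all genes, threshold 0.05): PHD1-/- over PHD1+/+ in each class, each class over the mean of the other 12 with the library as a block, and the interaction of both. DESeq2 1.42.0, other size factors, no filter, nuclei with at least 1000 UMIs, leaving out each library, replicates 2 and 3 only and a replicate block were alternatives. The fits were tested on simulated counts. Same-numbered libraries deviated together from their group means (correlations of 0.871, 0.694 and 0.629 over 19303 genes in all nuclei, and over 0.1 for every pair in 12 of 14 comparisons, not in endothelial and ependymal cells). Libraries of unlike number reached 0.573 in all nuclei. In some classes they passed a same-numbered pair, as in fibroblasts (0.461 against 0.133 for replicate 2) and Schwann cells (0.271 against 0.153 for replicate 3). The correlations therefore do not settle the pairing. The numbers were read as pairs in the replicate block and the pair directions only, not in the main genotype fit. The labels name 3 littermate pairs without tying the number to them. Genes named are the 3 most counted of each family, those with a class log2 difference over 3, and the 3 of smallest p in each genotype comparison. A further list of partner genes is not reported here. The members and lists were chosen with earlier results of these data known. SDs, and the SEs and p-values of the genotype tests, measure the spread between these 6 libraries, counting error included. In the class and interaction tests the block removes each library's own level. Their p-values and SEs measure the spread left among the class sums of the 6 libraries. Each SE was the log2 difference divided by the square root of the F value of its test. Poisson intervals measure counting error only.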

Additional observations from a re-analysis of the deposited data

How the results depend on the processing

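No alternative changed a genotype call: 0 members were called in each of 14 comparisons and in the interaction under all 168 alternative genotype fits and 10 alternative interaction fits. The pairing by replicate number (replicate block) gave 0 called members and 31 of 451 at an unadjusted p under 0.05, against 3 without it; among all genes it called 1 in astrocytes, 19 in cholinergic neurons, 6 in ependymal cells, 27 in excitatory neurons, 44 in inhibitory neurons and 5 in precursors, none a member, against 0 without it. All 461 alternative values of the members named in a class kept their direction and their call. Of the counts per class, 140 of 143 higher and 129 of 143 lower ones stayed within 1.5 times. With replicates 2 and 3 only, lower members numbered 6 in endothelial cells, 5 in excitatory neurons, 7 in inhibitory neurons and 4 in mural cells, and higher ones 4 in mural cells. With nuclei of at least 1000 UMIs, lower members numbered 5 in ependymal cells and 7 in fibroblasts. In mural cells, no filter gave 5 higher and 6 lower, and no library block 4 lower. Leaving out 1 library at a time gave ranges for lower members of 7 to 11 in endothelial cells, 5 to 9 in excitatory neurons (5 without PHD1-/- replicate 1), 7 to 11 in fibroblasts, 2 to 6 in mural cells, 13 to 18 in newly formed oligodendrocytes and 4 to 7 in precursors, and for higher members of 2 to 5 in mural cells. Of the values of the members named by genotype, 5 of 495 changed sign, none called: Ntng2 in all nuclei was -0.000504 with replicates 2 and 3 only, and Efna5 in microglia -0.411 with nuclei of at least 1000 UMIs. With 1 library left out, Unc5c in Schwann cells ranged between -1.24 and 0.186 (positive without PHD1+/+ replicate 1), Plxnc1 in microglia between -0.942 and 0.0964 (without PHD1+/+ replicate 2) and Efna5 in microglia between -0.0532 and 0.384 (without PHD1-/- replicate 3). The cause was not tested. Over all 451 member tests, 286 (63.4%) changed sign when some 1 library was left out, among them Slit3 in cholinergic neurons. Of the 3 with an unadjusted p under 0.05 by edgeR, 0 changed sign. Those 3 were picked by their p from these same libraries, so their kept sign says nothing about stability. No share over all genes is given beside these sign changes. Depth limits the small classes: mural cells had 30910 to 95596 UMIs per library and 5 members tested, and endothelial cells 14563 to 426638 UMIs and 12.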
